A study of Mus musculus with 2 samples.

Results

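Type I interferon-stimulated genes were followed in the ventral prostate of mice that carry a miR-32 transgene. The set was fixed by name as Ifit1, Ifit2, Ifit3, Isg15, Oas1a, Oasl2, Mx1, Mx2, Rsad2 and Usp18, and its probes were those non-control probes whose accession maps to one of these symbols. Of the 10 genes, 8 had a matched probe and 11 of the 41174 different probes on the array belonged to them. No probe accession matched Mx1 or Mx2, the dynamin-like antiviral GTPases, in the RefSeq gene table used for names, so these genes were not analysed here. A signal is called present here where Feature Extraction marked it as well above its background, and a probe counts as detected if it was present on both arrays in either pool. All 8 matched genes were detected, by 8 of their 11 probes, among 13899 detected genes.

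The transgenic pool held RNA of 6 mice with the genotype ARR2PB-miR32, and the wild-type pool held RNA of 6 mice without it. All mice were 6 months old and of the FVB/N strain (also spelled FBV/N in the labels). The ARR2PB promoter is a composite of the probasin promoter that drives a transgene in prostate epithelium, so the labels describe the microRNA as added in that cell type while the RNA came from the whole lobe. Both pools were hybridised together to a 2-colour Agilent mouse array, with the transgenic pool in Cy3 on array 1 and, after the dyes were exchanged, in Cy5 on array 2. Both arrays measured the same RNA pools, so each genotype had 1 replicate, no test between genotypes was possible, and the SD given with a mean (n = 2 technical arrays) leaves out the spread between mice. The detected prostate markers included Pbsn, Hoxb13, Krt8 and Krt18, with 9 of 9 epithelial markers detected.

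Type I interferons bind a receptor made of IFNAR1 and IFNAR2. The kinases JAK1 and TYK2 then activate transcription factors, among them STAT2, which join IRF9 in a complex that binds a DNA element called the interferon-stimulated response element (ISRE). Its target genes encode antiviral effectors and regulators of the response itself, and many of them are also transcribed at a low level without added interferon. The transgene's product in its main mature form, miR-32-5p of mouse chromosome 4 in RefSeq (GRCm38.p6), is shown with its seed, bases 2 to 8, in capitals, because it is what the transgene adds.
mmu-miR-32-5p: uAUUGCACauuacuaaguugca

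The promoters are shown for the gene with the highest ratio (Ifit1), the gene next to it (Rsad2) and the gene with a ratio closest to 0 (Oasl2). Each window runs from 250 bases before the RefSeq start to 50 after it, on GRCm38.p6, a C57BL/6J genome, and not on the FVB/N genome. Capitals mark the ISRE core, GAAA followed by any 2 bases and another GAAA. It was searched on both strands, so that it also reads as TTTC, any 2 bases and TTTC.
Ifit1 (chr19:34640639-34640938, plus strand): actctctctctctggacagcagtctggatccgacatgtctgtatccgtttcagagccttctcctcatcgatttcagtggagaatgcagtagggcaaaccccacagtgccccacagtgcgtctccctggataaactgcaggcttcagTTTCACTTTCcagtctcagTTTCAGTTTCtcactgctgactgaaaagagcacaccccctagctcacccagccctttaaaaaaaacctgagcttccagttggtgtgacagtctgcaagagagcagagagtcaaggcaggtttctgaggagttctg
Rsad2 (chr12:26456403-26456702, minus strand): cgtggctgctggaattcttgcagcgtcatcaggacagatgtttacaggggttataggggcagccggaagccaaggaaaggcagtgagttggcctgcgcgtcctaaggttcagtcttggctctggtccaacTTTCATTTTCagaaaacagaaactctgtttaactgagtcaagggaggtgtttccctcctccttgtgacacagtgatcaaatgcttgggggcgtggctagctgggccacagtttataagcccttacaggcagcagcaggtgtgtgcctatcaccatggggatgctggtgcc
Oasl2 (chr5:114896684-114896983, plus strand): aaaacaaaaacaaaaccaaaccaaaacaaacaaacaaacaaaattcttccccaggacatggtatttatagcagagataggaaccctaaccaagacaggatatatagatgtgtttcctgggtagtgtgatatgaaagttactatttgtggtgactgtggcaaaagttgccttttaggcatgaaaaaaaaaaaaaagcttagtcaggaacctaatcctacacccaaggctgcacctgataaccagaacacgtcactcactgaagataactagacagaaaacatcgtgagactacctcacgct

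The ISRE core was present in 3.44% of 32851 promoter windows of the same length. Of the 7 genes with a window, 5 held it: Ifit1, Ifit3, Isg15, Oas1a and Rsad2. Ifit1 had 2 matches, TTTCACTTTC and TTTCAGTTTC, which began 104 and 85 bases before the start. Ifit3 had the same 2 letter strings, at 156 and 122 bases before its start. Rsad2 had 1 match, TTTCATTTTC, at 120 bases. Isg15 had 3 overlapping matches (GAAAAGGAAA, GAAACCGAAA and GAAACAGAAA) and Oas1a had 2 overlapping ones (GAAATGGAAA and GAAACTGAAA). These letters were not found in the Oasl2 window or in either of the 2 windows of Ifit2. The element of interferon-gamma signalling, TTCNNNGAA (GAS), was found in the windows of 2 of the 7 genes, against 8.3% of all windows, and it overlapped no ISRE core match in them. A match of letters is a description and does not show that a factor binds there.

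Ifit1 was higher in the transgenic pool on both arrays, and most of the other genes lay much closer to the wild-type level. Ifit1 stood at a mean log2 ratio of transgenic over wild type of 1.51 ± 0.14, or 2.85-fold, and Rsad2 came next at 0.96 ± 0.16, or 1.94-fold. Ifit3 (0.45 ± 0.20) and Usp18 (0.41 ± 0.19) were above 0 on both arrays at smaller ratios. Isg15, Oas1a, Ifit2 and Oasl2 had ratios of opposite sign on the 2 arrays, but this depended on the processing. With the processed signals of Feature Extraction, Isg15 (0.80 and 0.18), Oas1a (0.09 and 0.90) and Ifit2 (0.55 and 0.39) were above 0 on both arrays. Oasl2 (-0.24 and 0.04) again had opposite signs there. Calls of higher or lower required a mean log2 ratio of 1 or more in size, together with a change of 1.5-fold or more in the same direction on each array. By this rule 1 of the 8 genes was higher, Ifit1, and 0 were lower, beside 1.09% higher and 3.53% lower among all detected genes. With the reported ratios, 4 of the 8 genes were above 0 on both arrays and 0 were below 0 on both, against 24.6% and 27.3% of all detected genes. The median over the 8 was 0.34, and the median over all detected genes was 0.01. Rsad2, Usp18 and Isg15 were detected through the transgenic pool alone, so the filter itself favours higher ratios among them. With detection required in both pools, the median over the 5 genes measured was 0.27.

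Ifit1 encodes a tetratricopeptide-repeat protein that binds viral RNA whose cap lacks a methyl mark of host RNA. Its log2 level, a normalised channel intensity that is not compared between genes here, was 9.38 and 9.002 in the transgenic pool on arrays 1 and 2, against 7.77 and 7.59 in the wild-type pool. The pools did not overlap, and all 4 signals were present. Before normalisation, the Cy3 spot signal was 859 over a local background of 24 for the transgenic pool, and 290 over 25 for the wild-type pool. In Cy5 it was 376.5 over 105 for the transgenic pool and 179.5 over 104 for the wild-type pool. The order of the pools was thus the same within each dye. The log2 ratio was 1.61 on array 1 and 1.41 on array 2, which placed Ifit1 at rank 53 from the highest among the 13899 detected genes.

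Ifit3, of the same gene family, has been described in human cells as a partner that stabilises the binding of IFIT1 to RNA. Its log2 level was 7.88 and 7.98 in the transgenic pool and 7.57 and 7.39 in the wild-type pool. The transgenic values were both above the wild-type ones, by a fold of 1.37, and the gene was not called. Ifit2, a family member that also binds RNA, gave 7.003 and 7.06 in the transgenic pool and 7.15 and 6.82 in the wild-type pool by its detected probe. The pools overlapped, at a log2 ratio of 0.05 ± 0.27. Its other probe, at 0.12 ± 0.28, was present on 1 array in each pool, in Cy3 in both cases.

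Rsad2 encodes viperin, an enzyme that turns CTP into a nucleotide which stops viral RNA synthesis. Its detected probe had log2 levels of 7.63 and 7.58 in the transgenic pool, against 6.78 and 6.51 in the wild-type pool. The pools did not overlap, but the mean ratio fell just short of the rule, and the wild-type signal was present on array 2 alone. In Cy3 its spot signal was 194 over 24.5 in the transgenic pool and 89.5 over 24 in the wild-type pool. In Cy5 it was 196 over 113 in the transgenic pool and 128 over 110 in the wild-type pool. The other 2 probes of Rsad2 were not detected and gave log2 ratios of 0.39 ± 0.11 and -0.13 ± 0.01. Each of them was present in the transgenic pool on array 1 alone, and in the wild-type pool on neither array, so the probes of Rsad2 did not give a common value.

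**Figure D1:**
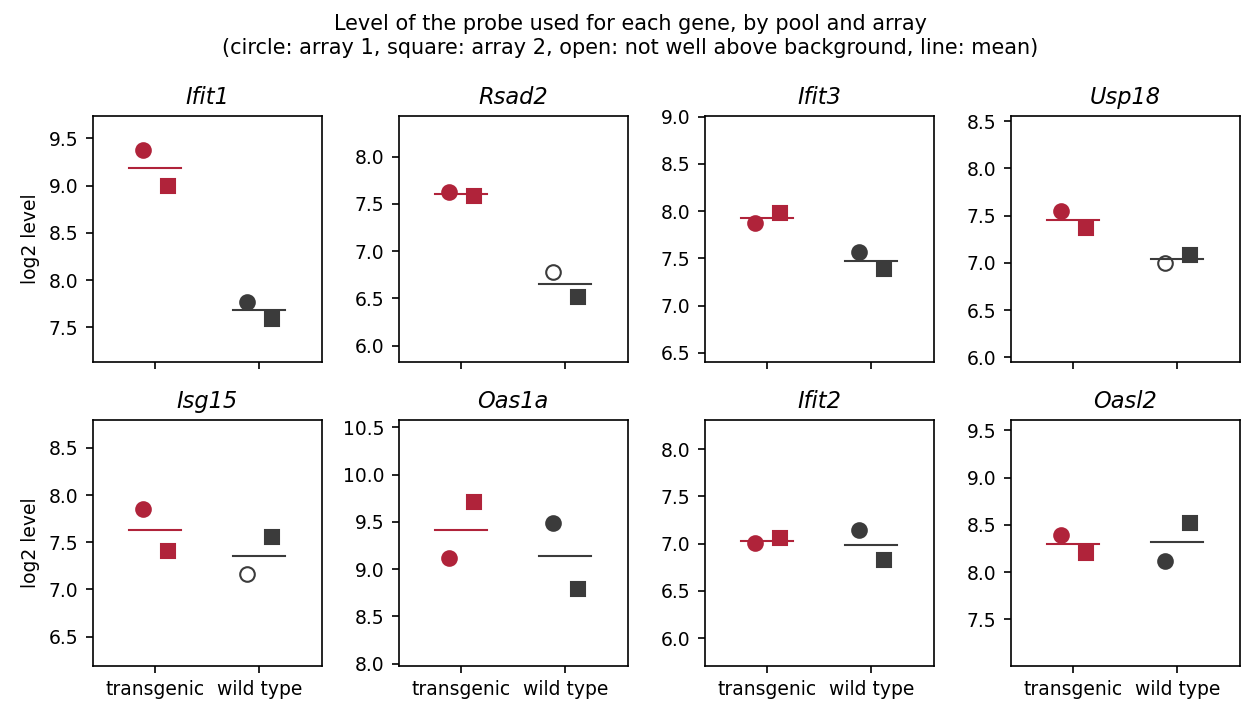
Log2 level of the probe used for each of the 8 genes in the transgenic pool (red, left) and the wild-type pool (grey, right), on array 1 (circles) and array 2 (squares), with lines at the mean of the arrays and open symbols where the signal was not present. Each panel has its own axis of the same length, and the pools do not overlap for Ifit1, Rsad2, Ifit3 and Usp18.

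Isg15 is a ubiquitin-like protein that is attached to other proteins, and Usp18 is the protease that removes it and that also restrains signalling at IFNAR2. Usp18 had log2 levels of 7.55 and 7.37 in the transgenic pool and 7.003 and 7.09 in the wild-type pool. The transgenic values were both the higher, and the wild-type signal was present on array 2 alone. Isg15 gave 7.85 and 7.41 in the transgenic pool and 7.16 and 7.55 in the wild-type pool. Its pools overlapped, with a log2 ratio of 0.69 on array 1 and -0.15 on array 2, and the wild-type signal was again present on array 2 alone. Of the enzymes that attach Isg15 to its targets, the activating enzyme Uba7 stood at -0.41 ± 1.29 and the conjugating enzyme Ube2l6 at -0.59 ± 0.62, and the ligase Herc6 was not detected. Neither Uba7 nor Ube2l6 passed the rule.

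Oas1a is a double-stranded RNA sensor that makes oligoadenylates, the activator of RNase L, and Oasl2 is a related synthetase with ubiquitin-like repeats. Oas1a had log2 levels of 9.12 and 9.71 in the transgenic pool and 9.49 and 8.79 in the wild-type pool. On array 1 its ratio was below 0 (-0.37) and on array 2 above 0 (0.91), so the transgenic pool was the higher when it was in Cy5 and the lower when it was in Cy3. With Feature Extraction's ratios Oas1a was above 0 on both arrays, at 0.09 and 0.90, so this order depended on the processing. Oasl2 gave 8.39 and 8.21 in the transgenic pool against 8.12 and 8.53 in the wild-type pool, and the order of the pools turned over between the arrays as well, with ratios of 0.28 and -0.32. The means, 0.27 ± 0.91 for Oas1a and -0.02 ± 0.42 for Oasl2, were smaller than their SD.

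Spot signals before normalisation allow the pools to be set side by side in the same dye, although then on different arrays. They are not scaled for a difference in brightness between the arrays, and the local background is not subtracted. For Ifit3 in Cy5 that background was 121 for the transgenic pool and 118 for the wild-type pool. Folds between such dim Cy5 signals thus look smaller here than they would above background. The kinase gene Tyk2, with a log2 ratio of 0.04 ± 0.07, had a Cy3 signal of 280.5 in the transgenic pool and 362 in the wild-type pool. Its Cy5 signals were 224.5 and 226. A gap between pools thus cannot be told apart here from a gap between arrays. Oas1a had a Cy3 signal of 751 in the transgenic pool and 754 in the wild-type pool, and a Cy5 signal of 577 in the transgenic pool and 502.5 in the wild-type pool. The spot signals of Oas1a were thus nearly level in Cy3. Isg15 gave 245 in the transgenic pool and 251 in the wild-type pool in Cy3, and 162 in the transgenic pool and 141 in the wild-type pool in Cy5. For Ifit3 the Cy3 signal was 264 in the transgenic pool and 231 in the wild-type pool, and the Cy5 signal was 231 in the transgenic pool and 186 in the wild-type pool. The spot signal of Ifit3 was higher for the transgenic pool in both dyes, by far less than that of Ifit1. The spot signal of Oasl2 was lower for the transgenic pool in Cy3, at 408.5 against 594 in the wild-type pool, a direction that Tyk2 shared. In Cy5 it was nearly level, at 235 in the transgenic pool and 232 in the wild-type pool.

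**Figure D2:**
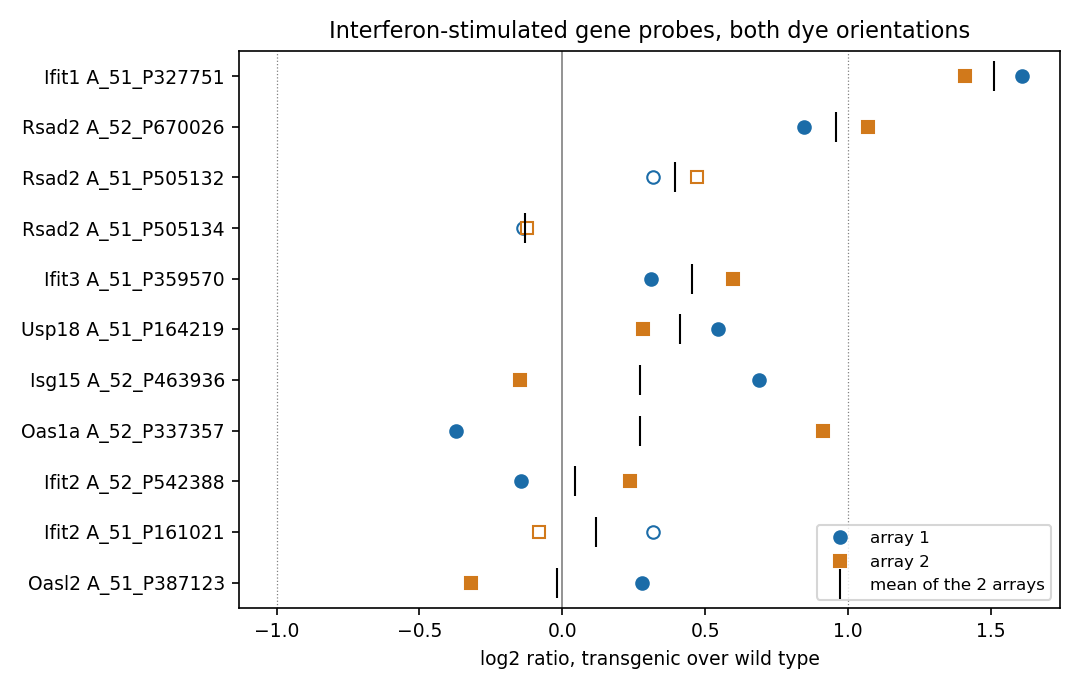
Log2 ratio of transgenic over wild type for the 11 probes on array 1 (blue circles) and array 2 (orange squares), with the mean as a vertical bar and open symbols for probes that were not detected. Ifit1 lies between 1.41 and 1.61, to the right of the other probes on both arrays, and the dotted lines mark a log2 ratio of 1 in size.

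The difference between a gene's ratio and that of Ifit1 was taken within each array, with the size rule of the calls deciding which genes counted as apart. Ifit1 was the point of comparison with its high ratio already known, so these differences are a description. Ifit2, Ifit3, Isg15, Oasl2 and Usp18, 5 of the 7 genes, were apart from Ifit1, all at lower ratios. The mean differences in log2 ratio were -1.53 ± 0.28 for Oasl2, -1.46 ± 0.41 for Ifit2, -1.24 ± 0.45 for Isg15, -1.10 ± 0.04 for Usp18 and -1.06 ± 0.35 for Ifit3. Oas1a was not settled, at -1.24 ± 1.05, because its difference on array 2 was -0.50. It was apart in 4 of the 8 alternatives that kept both arrays and this rule. These were median centring, the offset of 16, Feature Extraction's ratios and the authors' deposited table. With the 1.5-fold rule and on array 1 alone Oas1a was also apart, and on array 2 alone it was not. Usp18 was apart in 5 of the 6 alternatives of this kind that measured it. It was not settled with Feature Extraction's ratios, where its difference was -0.92 on array 1 and its mean -0.99. Rsad2 was also not settled, at -0.76 on array 1 and -0.34 on array 2. No gene stayed within 1.5-fold of Ifit1 on both arrays (0 of 7) with these ratios.

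Rsad2 was the gene whose place depended most on how dim signals were treated. With the processed signals of Feature Extraction its log2 ratios were 2.76 and 2.19, above those of Ifit1 at 2.44 and 1.73, and it lay within 1.5-fold of Ifit1 on both arrays. With a smaller offset of 16 in the background correction its mean was 1.31. Rsad2 was called higher under 5 of the 9 alternatives that measured it, while Ifit1 was called higher under 11 of 11. Usp18 was called higher under 1 of 9, with Feature Extraction's ratios, at 1.09. Feature Extraction's ratios thus gave 3 called genes, Ifit1, Rsad2 and Usp18, beside 2.22% of all genes called higher there and 6.75% lower. Ifit2, Ifit3, Isg15, Oas1a and Oasl2 were called under none of their alternatives. Both Ifit1 and Rsad2 were called with median centring (0.712% of all genes higher, 2.91% lower), with the offset of 16 (1.39% and 4.68%), with a mean of 1.5-fold as the rule (3.4% and 7.75%) and on array 2 alone (1.95% and 4.24%). Ifit1 alone was called without background subtraction (0.935% and 3.08%), in the authors' deposited table (1.25% and 3.45%), with detection required in both pools (1.05% and 2.22%), with no filter (0.473% and 1.54%), with the mean of probes (0.957% and 3.33%) and on array 1 alone (3.24% and 4.31%). Each pair in brackets gives all genes called higher and then lower, and 0 of the 8 genes were lower under any of these. Signals of the 11 probes were present in 20 of 22 cases in Cy3 and in 13 of 22 in Cy5, so the ratios of the dimmer genes rest in part on Cy5 signals near background.

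**Figure D3:**
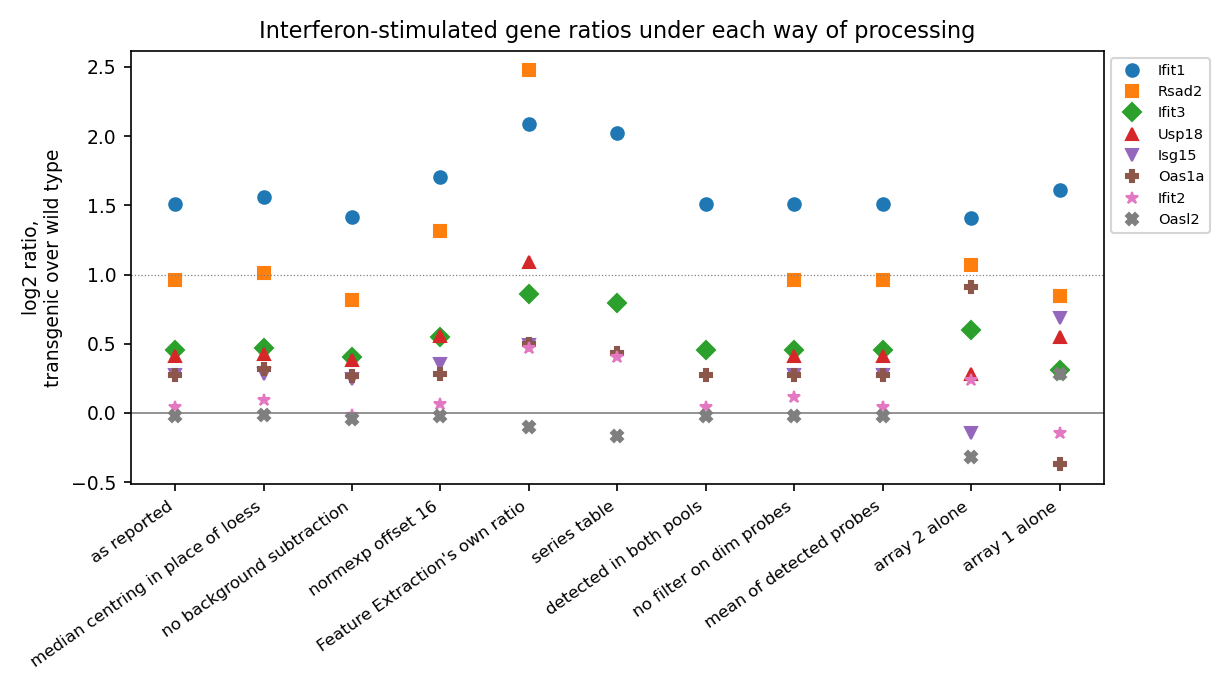
Log2 ratio of transgenic over wild type of the 8 genes as reported and under the alternatives of processing, with a dotted line at 1. Ifit1 lies between 1.41 and 2.09 throughout, and Rsad2 lies between 0.82 and 2.47 where it was measured.

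Most other type I interferon-stimulated genes did not share the ratio of Ifit1. Of 66 such genes listed, 58 had a probe and 43 were detected, with 1 higher, 2 lower and a median of -0.14. Among all detected genes 1.09% were higher and 3.53% lower, so these counts lie near the share of all genes. Ly6e, a membrane protein anchored by a lipid, was higher at 1.29 ± 0.87, with 0.68 on array 1 and 1.91 on array 2, and it did not pass on array 1 alone. The lower genes were Ifi204, a DNA-binding protein of the p200 family, at -1.15 ± 0.01, and Ifitm3, which blocks entry of enveloped viruses, at -1.01 ± 0.04. Neither passed under median centring or without background subtraction, Ifitm3 did not pass on array 2 alone (-0.99), and other detected probes of Ifi204 gave -0.78 and -0.34. Below 0 on both arrays were 19 of the 43 genes, and above 0 on both were 6, against 27.3% and 24.6% of all detected genes.

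Among those that were not called, Slfn5 was at -0.96 ± 0.14 by its detected probe, and its other probe, not detected, gave -0.15. Slfn5 was called lower with the offset of 16, Feature Extraction's ratios, the series table and the 1.5-fold rule, and on array 2 alone. Oas1f (0.32 ± 0.14) and Cxcl10 (0.26 ± 0.42), a chemokine that attracts T cells, had the highest reported ratios after Ly6e. Of the relatives of the 8 genes, Oasl1 stood at 0.24 ± 0.12, Oas1e at 0.16 ± 0.28 and Oas1c at -0.30 ± 0.37. The wild-type signal of Oasl1 was present on 1 of the 2 arrays, and its ratio depended on the treatment of dim signals. With Feature Extraction's ratios it stood at 1.40 and was called higher, beside 2.22% of all genes called higher there. Oas2, Oas3, Oas1d, Oas1g, Oas1h, Ifit3b, Ifit1bl1 and Ifit1bl2 had probes that were not detected. The brighter probe of Ifit1bl1 was present on 1 array in each pool, at ratios of 0.60 and 0.10. Signal shared between close relatives, such as Ifit3 and Ifit3b or Oas1a and Oas1g, was not tested.

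Upstream of these genes, most of the components described here were not called. The receptor chains Ifnar1 (-0.36 ± 0.32) and Ifnar2 (-0.55 ± 0.24) and the kinases Jak1 (-0.10 ± 0.19) and Tyk2 (0.04 ± 0.07) were not called, and 0 of 6 receptor and kinase genes passed the rule. Of the complex that binds the ISRE, Stat2 stood at -0.14 ± 0.07 and Irf9 at -0.05 ± 0.32. The interferon-inducible factor Irf7 was at 0.15 ± 0.20, and Irf5, a factor of myeloid and B cells, was lower at -1.07 ± 0.31, with the transgenic signal present on 1 of the 2 arrays. Irf5 did not pass without background subtraction (-0.93) or on array 2 alone (-0.85).

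Sensors of viral RNA and DNA had a median of 0.03 over 13 detected genes. Zbp1, a sensor of left-handed nucleic acids, was the single called gene, lower at -1.58 ± 0.29 with log2 levels of 6.76 and 7.31 in the transgenic pool against 8.54 and 8.68 in the wild-type pool. The RNA helicases Ddx58 (-0.35 ± 0.004), Ifih1 (-0.17 ± 0.26) and Dhx58 (0.32 ± 0.05) and the endosomal receptor Tlr3 (0.40 ± 0.34) were not called. Of the 20 listed genes for type I and type III interferons, 11 had a probe and 1 was detected, Ifnz at 0.02. The probe of Ifnb1 was present in the transgenic pool on 1 of the 2 arrays and in the wild-type pool on neither.

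Of 25 detected interferon-gamma genes, 14 were lower and 0 higher, with a median of -1.10, beside 3.53% lower and 1.09% higher among all detected genes. The GTPase Iigp1, present in both pools on both arrays, stood at -3.63 ± 0.17. The other lower genes were the GTPases Tgtp1, Igtp, Irgm1, Irgm2, Gbp2, Gbp3, Gbp6 and Gbp9, the tryptophan-degrading enzyme Ido1, the immunoproteasome subunits Psmb8 and Psmb9, the MHC class II regulator Ciita and the transcription factor Irf1. Of the 14 lower genes, 6 (Tgtp1, Ido1, Gbp3, Gbp6, Gbp9 and Ciita) were present in the transgenic pool on 1 array alone, so that their ratios depend on the treatment of dim signals. These 6 were detected through the wild-type pool alone, where they are high, as held for 11 of the 25 genes in all. Tgtp1, for example, had a mean log2 ratio of -3.24 as reported and of -5.03 with Feature Extraction's ratios. In the same pools, 17 of 22 detected leukocyte markers were lower, out of 27 listed, with a median of -1.52. Among all detected genes 3.53% were lower. Of the lower markers, 4 of 6 for B and plasma cells and 4 of 5 for T and NK cells were not present on both arrays in the transgenic pool. They were detected through the wild-type pool alone, where they are high, so the filter itself favours lower ratios among them. For macrophage and dendritic cell markers this held for 0 of 6. The summed linear level of the B and plasma cell markers was 2066 and 2298 in the transgenic pool against 21290 and 24280 in the wild-type pool. That of the T and NK cell markers was 730.2 and 1027 in the transgenic pool against 1956 and 2240 in the wild-type pool, and that of the macrophage and dendritic cell markers was 2602 and 2845 in the transgenic pool against 9096 and 11860 in the wild-type pool. These sums add the intensities of different probes and are not a measure of cell number. Jchain alone made up 72.3% and 62.8% of the B and plasma cell sum in the transgenic pool, and 75.6% and 74.4% of it in the wild-type pool. In the transgenic pool 5 of 7 B and plasma cell markers and 5 of 7 T and NK cell markers were not present on both arrays, against 1 of 8 macrophage and dendritic cell markers. Among these markers Icos had no present signal in the transgenic pool, and Blk, Cd4, Cd8a and Itgam were not detected. The 9 epithelial markers had a median of 0.12, with 1 lower (Sbp). The part of leukocyte RNA in the lower ratios of Irf5, Zbp1 and the interferon-gamma genes was not tested, and in pooled tissue RNA fewer cells of a type and less RNA per cell cannot be told apart.

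**Figure D4:**
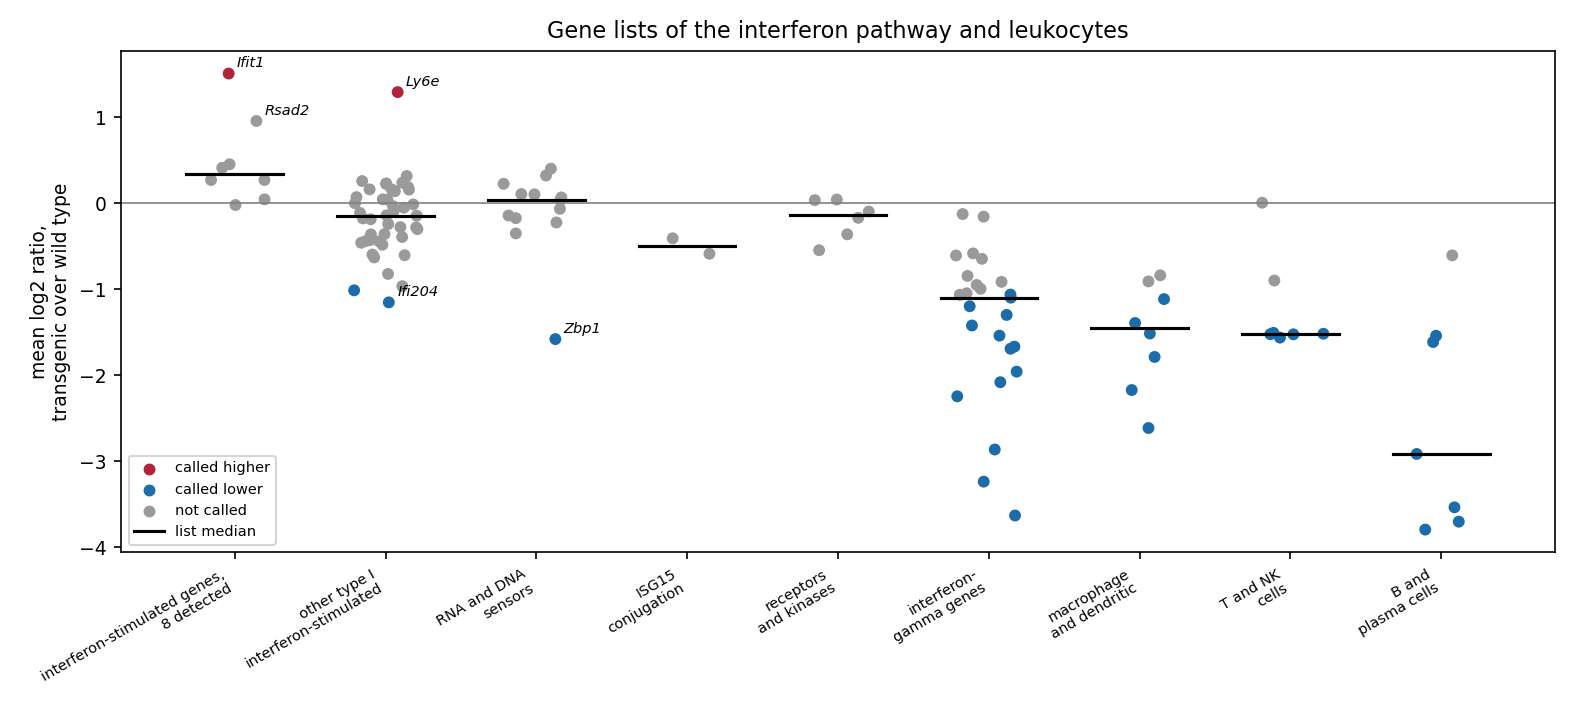
Mean log2 ratio of transgenic over wild type of each detected gene in lists of the interferon pathway and of leukocytes, with list medians as bars and called genes in red (higher) or blue (lower). The 8 interferon-stimulated genes have a median of 0.34, the other type I genes -0.14 and the interferon-gamma genes -1.10.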

How the data were processed

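Per the labels, 100 ng of total RNA per pool entered Agilent's Low Input Quick Amp labelling. Per the file headers, spots were read with Feature Extraction 11.0.1.1 on an array annotated to mm9. The deposited scanner files hold, per spot and dye, unnormalized median intensities of the signal and the surrounding background, together with processed intensities that the software background-subtracted and dye-normalized, a log10 ratio of Cy5 over Cy3, and flags. The deposited series table is on a log2 scale, and its columns (median 0 each) follow the processed transgenic over wild-type ratio, with median differences of -0.08 and -0.05 from it. How its rows were filtered is not stated in the labels used.

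Here, limma 3.58.1 (R 4.3.3) served for normexp background correction (offset 50) and for loess normalization of each array's ratios, with control and outlier spots at weight 0. Levels are channel values after loess and Aquantile normalization. Detection is as defined above, and a gene was represented by its brightest detected probe. A probe with an outlier spot alone on an array was left out. The steps were tested on simulated arrays. Of 41174 probes, 27816 were named through RefSeq accessions of GRCm38.p6, used for names and for the printed sequences.

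The named genes were the 10 chosen genes with every probe, and of each pathway list the called genes, relatives of the chosen genes and examples, mostly from the 3 highest and 3 lowest. Genes and lists were chosen with earlier results of these data known. Alternatives were median centring, no background subtraction, an offset of 16, Feature Extraction's ratio, the series table, detection in both pools, no filter, the mean of probes, each array alone and a 1.5-fold rule. Both arrays came from 1 slide and 1 scan, and their number limits the precision. Results of some listed genes are not reported here.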

Additional observations from a re-analysis of the deposited data

How the results depend on the processing

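Of 82 values of single genes under the alternatives, 77 kept their sign and 72 lay within 1 SD of the 2 arrays from the reported value. Each array alone lies within 1 SD of the mean of 2 arrays by construction. The 1.5-fold rule, detection in both pools and the mean of probes returned the reported ratio for every gene they measured. The 72 thus include values that could not move. Ratios moved by 1 SD or more with Feature Extraction's ratios, the offset of 16 or the series table. The count of the 8 genes called higher was 1 as reported, 3 with Feature Extraction's ratios and 2 with median centring, with an offset of 16, or with a mean of at least 1.5-fold, and 1 to 2 when an array was left out. None was called lower under any alternative (0 of 8, or 0 of 5 where fewer were measured). The count apart from Ifit1 was 5 of 7 as reported, 6 of 7 with median centring, with an offset of 16 and with a mean of at least 1.5-fold, 5 of 7 with Feature Extraction's ratios (with Oas1a and without Usp18), 4 of 4 in the series table, 3 of 4 with detection in both pools, and 4 to 5 on a single array. The median of the 8 was 0.68 with Feature Extraction's ratios, 0.27 with detection in both pools, 0.37 with median centring, 0.32 without background subtraction, 0.46 with an offset of 16, 0.43 in the series table and 0.43 to 0.44 on a single array. For the other type I genes it was -0.18 with detection in both pools, -0.094 with median centring, -0.064 with no filter, -0.24 in the series table and -0.19 to -0.15 on a single array. Among them, 3 were called higher (Ifi44, Ly6e and Oasl1) and 5 lower (Ifi204, Ifitm3, Samd9l, Slfn5 and Trim30a) with Feature Extraction's ratios. Those called lower numbered 7 with a mean of at least 1.5-fold, 1 with the mean of probes and 0 with median centring. They numbered 0 without background subtraction, 4 in the series table and 3 to 4 on a single array. The share of all genes called also changed with the setting. With Feature Extraction's ratios 2.22% of all genes were higher and 6.75% lower. Lower genes made up 7.75% of all genes with a mean of at least 1.5-fold, 3.33% with the mean of probes and 2.91% with median centring. They made up 3.08% without background subtraction, 3.45% in the series table and 4.24% to 4.31% on a single array, beside 3.53% as reported. The cause of the differences between settings was not tested, apart from the smaller number of genes where detection was required in both pools. No paired analysis was possible because both arrays measure the same pools and no test was run. Isg15, Rsad2 and Usp18 were not measured with detection in both pools, since the wild-type signal in Cy5 was not present. They also had no value in the series table, whose filter is not stated in the labels used.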

Other observations

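Plasmacytoid dendritic cells are a main source of type I interferon. Of 8 listed markers of these cells 6 were detected, with 1 lower, 0 higher and a median of -0.19. Spib, a transcription factor that B cells also use, was lower at -1.64 ± 0.70, with the transgenic signal present on 1 array. Irf8, a factor shared with other myeloid cells and B cells, had ratios of -1.54 and -0.56 on arrays 1 and 2 and fell short of the rule on array 2. Ly6c2 stood at -0.29 ± 0.53, Tcf4 at -0.08 ± 0.02, Bst2 at -0.05 ± 0.09 and Tlr9 at 0.10 ± 0.14. Siglech, the surface lectin that defines these cells, and Tlr7 were not detected.

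Cmpk2, a nucleotide kinase gene that neighbours Rsad2 in the RefSeq gene order, was not detected by either of its 2 probes, which gave log2 ratios of 0.10 and 0.03. The brighter of them was marked present for the transgenic pool on array 1 and for the wild-type pool on array 2, in Cy3 both times.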
